A study of Mus musculus with 6 samples.

Results

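The 39 genes described here act in the germline: 14 belong to the PIWI-interacting RNA (piRNA) pathway, 15 to meiosis, and 10 are other genes with germline-restricted functions. They were matched by symbol, and all 39 were among the 19938 genes that the arrays measured with a probe set assigned to a single gene symbol. RNA came from mouse embryonic stem cells of the Dicer Fx/Fx genotype, in which both alleles of Dicer are flanked by recombination sites. The untreated group held 3 arrays of these cells before deletion. The tamoxifen group held 3 arrays of cells of the same genotype that were given tamoxifen for 3 days to delete Dicer and were collected 2 days later, on day 5. The recombinase, the number of cell clones and the collection day of the untreated cells were not given in the sources used here, and wild-type E14 cells given tamoxifen were not analysed here. Any change below therefore belongs to tamoxifen, Dicer deletion and time in culture together, which cannot be told apart. The question is how germline transcripts behave in stem cells given tamoxifen to delete Dicer, the ribonuclease that makes mature microRNAs.

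The piRNA pathway silences transposons in germ cells. PIWI proteins carry small RNAs made without Dicer, and Tudor-domain proteins, helicases and scaffold proteins assemble them in granules called nuage. Meiosis needs other proteins: cohesins and axis proteins organise the chromosomes, recombination enzymes cut and repair DNA, and the synaptonemal complex holds homologous chromosomes together. Mouse embryonic stem cells do not enter meiosis, yet they carry transcripts of a number of these genes, whose promoters are held down in somatic cells by DNA methylation and by repressor complexes that read E-box and E2F motifs.

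Promoter sequence is shown for the 4 members with the largest falls among those past the test described below. These genes were chosen by the size of their change, and whether they move together was not tested. Each is the 250 bases before the annotated start in RefSeq, build GRCm38.p6, written 5′ to 3′ on the gene's strand. Capitals mark the E-box CACGTG and the E2F-type motif TCCCGC, each searched on both strands; the motifs can share at most an end base. Mael lies at chr1:166238745-166238994 (minus strand), Slc25a31 at chr3:40708621-40708870 (plus strand), Tdrd5 at chr1:156303349-156303598 (minus strand) and Dmc1 at chr15:79605110-79605359 (minus strand).
Mael: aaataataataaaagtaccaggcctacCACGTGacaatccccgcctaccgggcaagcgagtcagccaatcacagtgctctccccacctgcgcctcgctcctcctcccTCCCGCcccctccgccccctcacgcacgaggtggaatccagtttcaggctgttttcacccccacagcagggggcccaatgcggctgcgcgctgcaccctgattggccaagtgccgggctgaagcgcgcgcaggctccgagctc
Slc25a31: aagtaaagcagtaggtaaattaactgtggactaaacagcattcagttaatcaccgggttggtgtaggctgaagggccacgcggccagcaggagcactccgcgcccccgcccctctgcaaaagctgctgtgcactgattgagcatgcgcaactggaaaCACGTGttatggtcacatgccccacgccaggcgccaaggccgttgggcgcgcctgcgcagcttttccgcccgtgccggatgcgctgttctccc
Tdrd5: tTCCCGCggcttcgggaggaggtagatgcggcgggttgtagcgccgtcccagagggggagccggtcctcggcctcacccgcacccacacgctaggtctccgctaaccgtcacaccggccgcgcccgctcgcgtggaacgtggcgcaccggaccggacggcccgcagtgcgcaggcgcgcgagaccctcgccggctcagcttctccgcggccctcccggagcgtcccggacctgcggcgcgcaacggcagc
Dmc1: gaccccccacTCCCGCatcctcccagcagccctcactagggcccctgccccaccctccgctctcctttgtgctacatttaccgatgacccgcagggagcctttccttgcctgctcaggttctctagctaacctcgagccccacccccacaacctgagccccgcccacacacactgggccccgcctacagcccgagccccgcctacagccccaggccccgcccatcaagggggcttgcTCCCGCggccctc

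The Mael window held both motifs, with the E-box starting 223 bases and the E2F-type motif 143 bases before the start. Slc25a31 held the E-box at 93 bases, Tdrd5 held TCCCGC at 249 bases, and Dmc1 held TCCCGC at 240 and 13 bases. RefSeq windows were found for 35 of the 39 members, 43 windows in all, since some genes have several starts; Piwil2, Tex15, Tdrd6 and Spo11 had none in the table used. CACGTG was in 18 of these 43 windows (41.9%) and in 6.02% of all 32851 promoter windows of the same length. TCCCGC was in 16 of the 43 (37.2%) and in 16.9% of all windows. A member window held a median of 15 CpG dinucleotides, and the median over all windows was 6. With the replicate-blocked test below, 8 of the 18 genes that fell and had a window carried the E-box (44.4%), as did 7 of the 17 other genes (41.2%). TCCCGC was in 10 of the 18 (55.6%) and 4 of the 17 (23.5%). Over all genes with a window, 6.86% carried the E-box and 18.8% TCCCGC. Windows of the 18 genes held a median of 17.5 CpG, and those of the 17 a median of 14. The 18 and the 17 genes were not matched for signal or CpG number, and their difference was not tested. A motif match describes the letters and was not tested as a binding site.

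Genes of each of the 3 groups were called lower after tamoxifen, and no member was called higher. All values are log2 signals, and a gene was called at a limma adjusted p under 0.05 over all 19938 genes. In counts of genes, fell and rose mean called lower and called higher. Of the 39 members, 5 fell (Mael, Tdrd5, Slc25a31, Dmc1 and Hormad2), 0 rose and 34 were not called. The share called lower was 12.8%, beside 3.99% of all genes, and 3.79% of all genes were called higher. The members were chosen with earlier results of these data known, which can raise their shares, so the shares here do not test the group. At limma p-values under 0.05 before adjustment, 20 members were lower and 1 was higher, beside 13.1% and 11.5% of all genes. The change was below 0 in 28 members, and in 34 after cyclic loess or renewed quantile normalisation; 46.8% of all genes were below 0. With the replicate number as a block, 20 members fell and 0 rose, which is 51.3% of the members. In that fit 9.54% of all genes were called lower and 7.87% higher. The labels name no pairs, and the pairing by number was read from these same arrays, so blocked results depend on it. The median log2 change was -0.22 for the members and 0.01 for all genes. Within the 3 replicate pairs the members' median was -0.17, -0.28 and -0.27.

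**Figure D1:**
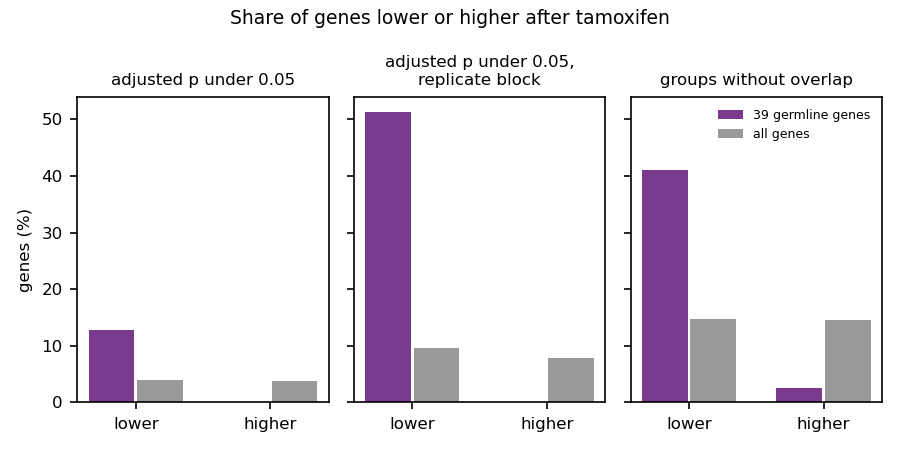
Bars give the percentage of genes lower or higher after tamoxifen under 3 rules: adjusted p under 0.05, the same with the replicate number as a block, and all 3 tamoxifen values on the same side of all 3 untreated values. The 39 germline genes (purple) reached 12.8%, 51.3% and 41% on the lower side, where all 19938 genes (grey) reached 3.99%, 9.54% and 14.8%. The germline genes were chosen with earlier results of these data known, and how far that choice set their shares was not tested.

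The groups did not overlap for 17 members. In 16 of them (41%) all 3 tamoxifen values lay below all 3 untreated values, which held for 14.8% of all genes, and in Hormad1 they lay above, which held for 14.5% of all genes. An exact two-sided permutation test of a single gene cannot go below p = 0.1 with 3 arrays against 3, so the calls rest on limma's variance estimate over all genes. The count of called members depended on single arrays: with untreated replicate 2 or untreated replicate 3 left out it was 3, with tamoxifen replicate 2 or tamoxifen replicate 3 left out it was 2, and with tamoxifen replicate 1 left out it was 12. Mael and Tdrd5 were called in all 6 of these fits, and Slc25a31, Dmc1 and Hormad2 in 2 of 6. Whether replicates came from separate cultures is not given in the labels, and the p-values then cover no more than the scatter of these samples, possibly a technical one.

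**Figure D2:**
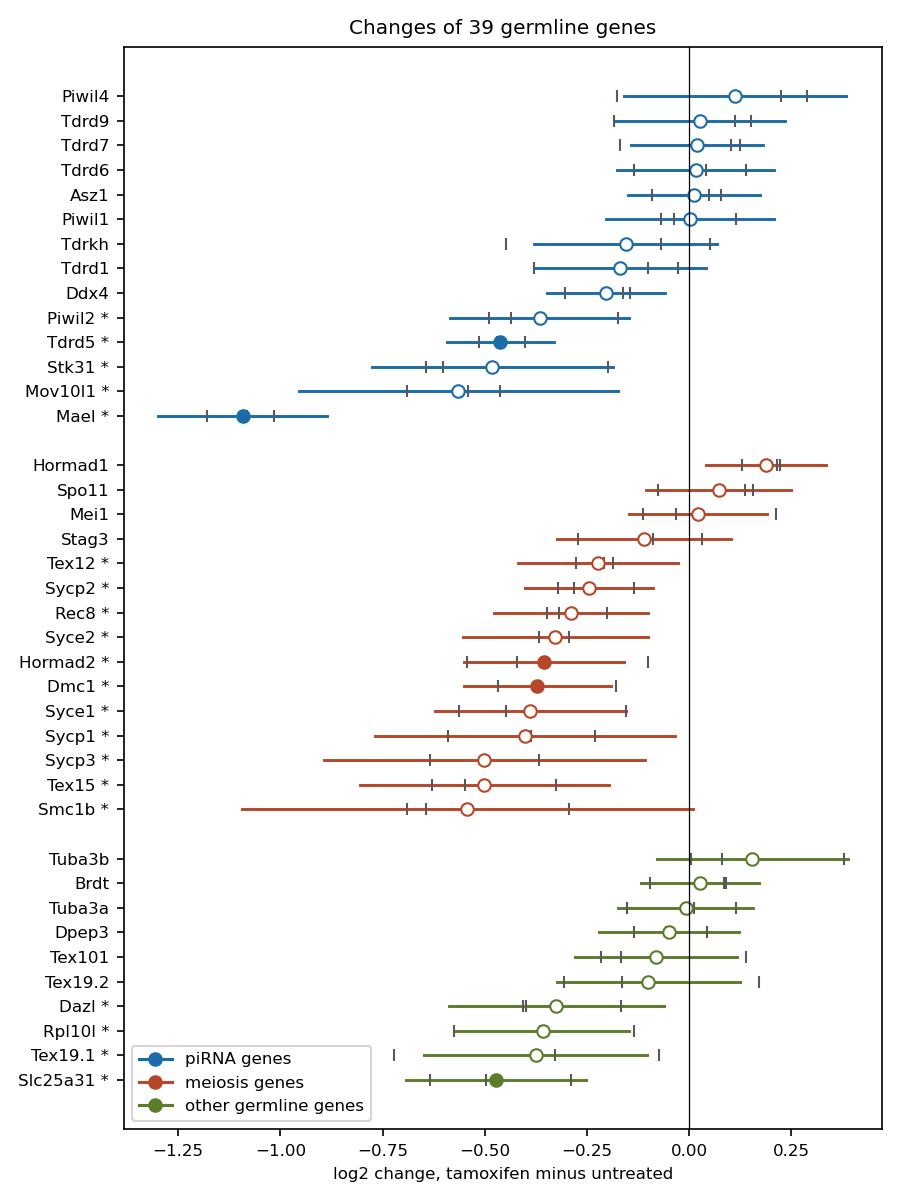
Each row is a gene, with its log2 change after tamoxifen (circle, filled where the adjusted p was under 0.05), limma's 95% confidence interval (line) and the differences within the 3 replicate pairs (ticks); a star marks an adjusted p under 0.05 with the replicate block. Mael stands apart at -1.09, most synaptonemal complex and cohesin genes lie between -0.54 and -0.22, and Hormad1 lies at 0.19.

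The targeted gene checked the labels. Dicer1 (probe set 10402444) read 11.43, 11.36 and 11.48 in the untreated arrays and 9.53, 9.48 and 9.69 after tamoxifen, a log2 change of -1.85 ± 0.07 (SE) with a limma adjusted p of 3.61e-05. Of 12 embryonic stem cell markers 0 were called by limma (before adjustment, 1 was higher and 3 were lower at p under 0.05), and their mean signals in untreated cells ran from 9.97 to 13.96. Their summed signal was 16.29 to 16.37 in untreated arrays and 16.22 to 16.30 after tamoxifen (log2). Of 9 markers of later spermatogenic cells 0 were called by limma (before adjustment, 2 were higher and 1 was lower), with a summed signal of 9.74 to 9.90 before and 9.80 to 9.83 after tamoxifen. Feeder fibroblast, primitive endoderm, trophoblast and gonadal support cell markers had 0 called members each, out of 10, 10, 10 and 7 measured; before adjustment, p under 0.05 was reached by 0, 1, 1 and 2 on the higher side and by 1, 2, 2 and 0 on the lower side. Over all genes 3.79% were called higher and 3.99% lower, and before adjustment 11.5% and 13.1% reached a limma p under 0.05. With the replicate block, markers in these lists also moved, all named after their values were seen. In that fit 7.87% of all genes were called higher and 9.54% lower. The share of a marker list called lower ran from 0% for support cells to 30% for trophoblast. The stem cell markers Tdgf1 and Utf1 fell (-0.24 and -0.26, adjusted p = 0.0326 and 0.0193), 2 of 12, as did Ldhc (-0.27), 1 of the 9 spermatogenic markers. Of the 10 trophoblast markers Eomes, Ascl2 and Krt7 fell (-0.57, -0.52 and -0.26), and their list's summed signal was 12.34 to 12.55 before and 12.32 to 12.65 after tamoxifen. Of the 10 primitive endoderm markers Sox7 and Lama1 fell and Pdgfra rose (-0.28, -0.26 and 0.36), with a summed signal of 11.32 to 11.43 before and 11.24 to 11.33 after. The fibroblast marker Thy1 fell (-0.32), 1 of 10, with a summed signal of 10.08 to 10.31 before and 10.18 to 10.28 after, and the support cell marker Wt1 rose (0.39), 1 of 7, with 10.10 to 10.24 before and 10.22 to 10.31 after. In all 6 lists the ranges of the summed signal overlapped between groups, for the stem cell markers only at the edge. A summed signal mostly follows the brightest probe sets, so this overlap does not show that the other markers kept their level. Among the stem cell markers the groups did not overlap for 3 on the higher side (25%) and 4 on the lower (33.3%). Over all genes these shares were 14.5% and 14.8%. The part of these markers in the results was not tested. The arrays give no detection call, so no marker can be said to be at 0. In bulk RNA, fewer cells that carry a transcript and less of it per cell cannot be told apart.

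Among piRNA genes, Mael led the falls. Mael (probe set 10359801) encodes a nuage protein needed for transposon silencing in the male germline. It read 10.73, 10.60 and 10.57 in untreated arrays and 9.72, 9.52 and 9.39 after tamoxifen. The groups were far apart, and the treated signal was 46.9% of the untreated one. The change was -1.09 ± 0.09 (SE; limma adjusted p = 0.00107), and it was -1.01, -1.08 and -1.18 in the 3 replicate pairs.

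Tudor-domain proteins bind the methylated arginines of PIWI proteins. Of Tdrd1, Tdrd5, Tdrd6, Tdrd7, Tdrd9 and Tdrkh, Tdrd5 alone was called. It read 8.46, 8.48 and 8.49 before and 8.06, 8.01 and 7.98 after tamoxifen. The replicates of each group lay close together and the groups did not overlap, and the change was -0.46 ± 0.06 (SE; limma adjusted p = 0.00495). Tdrd1 had a change of -0.17 ± 0.09, and Tdrkh, which tethers PIWI proteins to mitochondria, of -0.15 ± 0.10; their limma adjusted p-values were 0.307 and 0.38. Tdrd6, Tdrd7 and Tdrd9 had changes between 0.02 and 0.03, with 95% confidence intervals of -0.18 to 0.21, -0.14 to 0.18 and -0.18 to 0.23. In signal, those intervals hold no fall of the size seen for Tdrd5. Tdrd6, Tdrd7 and Tdrd9 were dim, with mean untreated signals of 5.85, 6.51 and 6.40. The median of all probe sets in untreated arrays was 7.19 to 7.23. The array processing (RMA, described below) compresses changes of dim probe sets, so the intervals do not bound a fall of these transcripts.

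The 3 PIWI genes gave unlike values. Piwil2, which encodes MILI, read 9.63, 9.68 and 9.56 before and 9.46, 9.25 and 9.07 after tamoxifen. All treated arrays lay below the untreated ones, but the treated arrays were spread, and the change of -0.37 ± 0.10 missed the threshold (limma adjusted p = 0.0544) and passed it with the block (0.013). Piwil1, which encodes MIWI, had a change of 0.00 (95% confidence interval -0.20 to 0.21), and Piwil4, which encodes MIWI2, of 0.11 (-0.16 to 0.38). Piwil1 and Piwil4 were dim, with mean untreated signals of 6.74 and 6.65, where changes are compressed. Piwil2 was brighter, so the values cannot show whether these genes respond differently. Differences between these genes were not tested.

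Mov10l1, the helicase that feeds piRNA precursors into processing, read 9.14, 8.80 and 8.64 before and 8.68, 8.11 and 8.10 after tamoxifen. Replicate 1 was the highest array in both groups, so the groups overlapped while each pair fell, by 0.46, 0.69 and 0.54. The change was -0.56 ± 0.17 with a limma adjusted p of 0.0823, and 0.00138 with the block. Stk31, a germ cell protein with Tudor and kinase domains, read 7.46, 7.88 and 7.51 before and 7.27, 7.24 and 6.91 after tamoxifen. Its groups did not overlap, and its change of -0.48 ± 0.13 had an adjusted p of 0.0573, and 0.00951 with the block.

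Ddx4, the mouse Vasa helicase and a classic germ cell marker, read 10.36, 10.23 and 10.22 before and 10.06, 10.08 and 10.06 after tamoxifen. The groups did not overlap, yet the change was small, -0.20 ± 0.06, and was not called without or with the block (limma adjusted p = 0.0892 and 0.0547). Asz1, a nuage scaffold protein on mitochondria, read 5.14, 5.22 and 5.17 before and 5.19, 5.29 and 5.08 after tamoxifen, with overlapping groups and a change of 0.01 ± 0.07, which came out below 0 after cyclic loess and after renewed quantile normalisation. In all, 2 of the 14 piRNA genes fell (14.3%), or 5 with the block (35.7%), and 0 rose. Over all genes 3.99% were called lower, or 9.54% with the block. The median change of the 14 genes was -0.16.

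**Figure D3:**
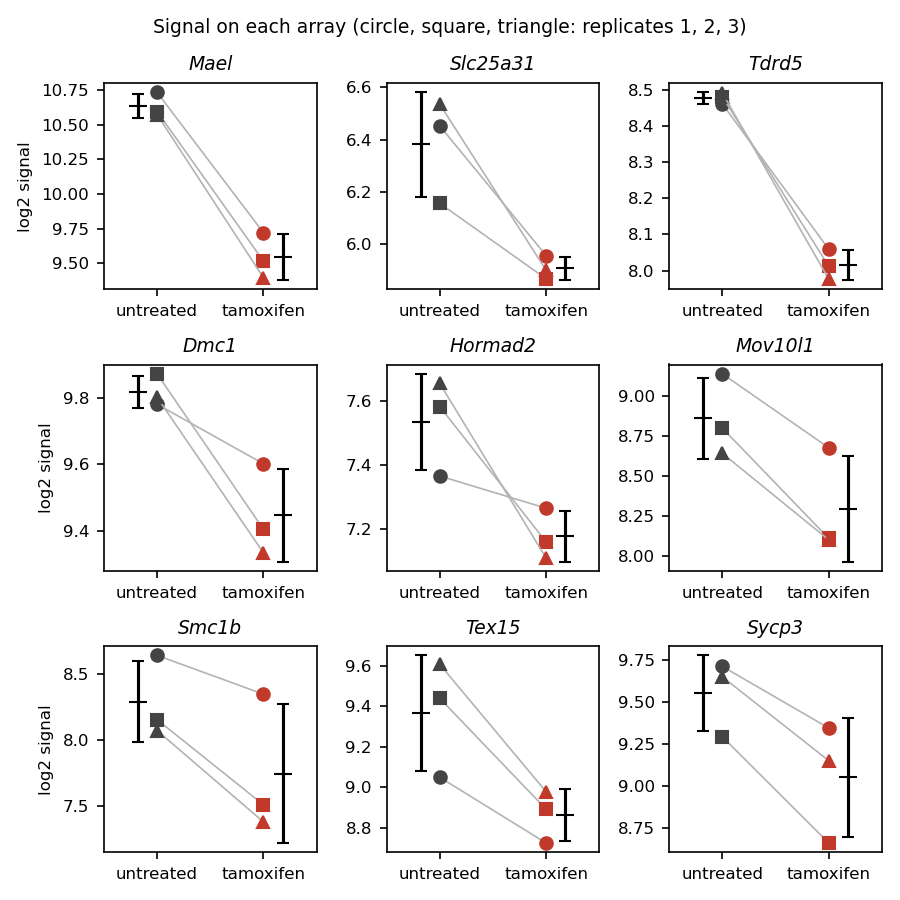
Log2 signal on each array for the 5 called members and the 4 largest changes called only with the replicate block (Mov10l1, Smc1b, Tex15 and Sycp3); each panel has its own axis, grey lines join arrays of the same replicate number, and bars give the group mean ± SD (n = 3). Every line runs downwards, and in Mov10l1 and Smc1b replicate 1 lies above the other replicates of its group both before and after tamoxifen.

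Of the 15 meiosis genes, 2 fell (Dmc1 and Hormad2, 13.3%) and 0 rose. With the block 11 fell (73.3%) and 0 rose. Over all genes 3.99% were called lower, or 9.54% with the block. The median change of the meiosis genes was -0.33, and 12 of the 15 values were below 0 (80%, beside 46.8% of all genes). For 11 of the 15, the value was lower in all 3 replicate pairs, which held for 26% of all genes.

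All 6 synaptonemal complex genes had changes below 0, as did 46.8% of all genes. The complex is built of lateral elements with SYCP2 and SYCP3, transverse filaments of SYCP1 and a central element with SYCE1, SYCE2 and TEX12. Sycp3 read 9.71, 9.29 and 9.65 before and 9.35, 8.66 and 9.15 after tamoxifen, and replicate 2 was the lowest array of both groups. Its change was -0.50 ± 0.17, with a limma adjusted p of 0.116, and 0.00252 with the block. Sycp1 read 6.16, 6.18 and 6.76 before and 5.93, 5.80 and 6.17 after tamoxifen; replicate 3 was high in both groups, so they overlapped. Its change of -0.40 ± 0.16 had an adjusted p of 0.167, and 0.01 with the block.

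Syce1 read 8.95, 9.16 and 8.90 before and 8.80, 8.60 and 8.45 after tamoxifen. Its groups did not overlap, and its change of -0.39 ± 0.10 had a limma adjusted p of 0.0545, and 0.0158 with the block. Syce2 read 11.76, 11.74 and 11.47 before and 11.44, 11.37 and 11.17 after tamoxifen. Every treated array lay below every untreated one, by a small margin, and the change was -0.33 ± 0.10 (adjusted p = 0.0835, or 0.00708 with the block).

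Sycp2 read 5.81, 5.93 and 5.99 before and 5.67, 5.61 and 5.71 after tamoxifen, and Tex12 read 4.48, 4.29 and 4.41 before and 4.29, 4.01 and 4.20 after. The Sycp2 groups did not overlap, while treated replicate 1 of Tex12 met the lowest untreated array. Their changes were -0.25 ± 0.07 and -0.22 ± 0.09, with limma adjusted p-values of 0.0647 and 0.152, and 0.0305 and 0.032 with the block. Of the 6 synaptonemal complex genes limma called 0 without the block (6 had p under 0.05 before adjustment) and 6 with it. Over all genes 3.99% were called lower without the block and 9.54% with it. Before adjustment, 13.1% of all genes were lower at a limma p under 0.05. Sycp1, Sycp2 and Tex12 were dim, with mean untreated signals of 6.37, 5.91 and 4.39. Changes are compressed there, so these values do not give the size of a fall of the transcripts.

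The meiotic cohesin subunits did not all have like values. Smc1b read 8.64, 8.15 and 8.07 before and 8.35, 7.51 and 7.38 after tamoxifen. Replicate 1 stood above the other replicates in both groups, so the SDs of 0.31 and 0.52 were wide beside the change of -0.54 ± 0.24 (limma adjusted p = 0.212, or 0.00427 with the block). Rec8, the meiotic kleisin subunit, read 8.85, 8.63 and 8.67 before and 8.53, 8.43 and 8.32 after tamoxifen. Its groups did not overlap, and its change of -0.29 ± 0.08 had an adjusted p of 0.0686, and 0.0146 with the block. Stag3 read 10.69, 10.53 and 10.77 before and 10.72, 10.44 and 10.50 after tamoxifen, with overlapping groups and a change of -0.11 ± 0.09 (adjusted p = 0.521, or 0.335 with the block).

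Hormad1 and Hormad2 encode axis proteins that leave chromosomes once these have synapsed, and their values went opposite ways. Hormad2 read 7.37, 7.58 and 7.65 before and 7.27, 7.16 and 7.11 after tamoxifen, and it fell (-0.35 ± 0.09, limma adjusted p = 0.0419). Hormad1 read 9.70, 9.67 and 9.64 before and 9.93, 9.89 and 9.77 after tamoxifen, with every treated array above every untreated one. Its change of 0.19 ± 0.06 was not called (adjusted p = 0.112, or 0.0573 with the block). A second Hormad1 probe set (10536427) read 8.23, 8.20 and 8.32 before and 8.41, 8.57 and 8.50 after tamoxifen, again without overlap, with a change of 0.24 ± 0.07 (adjusted p = 0.0654 over all single-symbol probe sets). The difference between the 2 genes was not tested.

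Among recombination genes, Dmc1, the strand exchange protein specific to meiosis, read 9.78, 9.87 and 9.80 before and 9.60, 9.40 and 9.33 after tamoxifen. It fell by 0.37 on the log2 scale (SE 0.08, limma adjusted p = 0.0281), with the smallest difference in pair 1 (-0.18, against -0.47 in pairs 2 and 3). Tex15, needed for repair of meiotic breaks and for transposon silencing in fetal germ cells, read 9.05, 9.44 and 9.61 before and 8.73, 8.89 and 8.98 after tamoxifen. Its groups did not overlap, and its change of -0.50 ± 0.13 had an adjusted p of 0.0564, and 0.00319 with the block. Spo11, which makes the breaks, and Mei1, which is needed for them, had changes of 0.07 ± 0.08 and 0.02 ± 0.07 and overlapping groups. Their 95% confidence intervals were -0.10 to 0.25 and -0.15 to 0.19. Both were dim, with mean untreated signals of 4.54 and 6.34, so these intervals do not bound a fall of the transcripts.

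Of the 10 other germline genes 1 fell (10%), or 4 with the block (40%), and 0 rose. Over all genes 3.99% were called lower, or 9.54% with the block. Slc25a31, an ADP/ATP carrier of germ cell mitochondria, read 6.45, 6.16 and 6.54 before and 5.96, 5.87 and 5.90 after tamoxifen. The treated arrays lay close together below the untreated ones, and the gene fell (-0.47 ± 0.10, limma adjusted p = 0.0236). It was dim, with a mean untreated signal of 6.38. Changes are compressed there, so this value does not give the size of the transcript's fall. Dazl, an RNA-binding protein that promotes translation in germ cells, read 8.58, 8.38 and 8.44 before and 8.42, 7.97 and 8.04 after tamoxifen. Treated replicate 1 lay within the untreated range, and the change of -0.32 ± 0.12 was called only with the block (adjusted p = 0.126, or 0.0151 with it).

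Tex19.1, which restrains retrotransposons in germ cells and placenta, read 8.17, 8.29 and 8.31 before and 8.10, 7.96 and 7.59 after tamoxifen. The treated arrays were spread, with pair differences of -0.07, -0.33 and -0.72, and the change of -0.38 ± 0.12 had a limma adjusted p of 0.0957, and 0.0481 with the block. Its paralog Tex19.2 had a change of -0.10 ± 0.10 and overlapping groups. Rpl10l, a testis copy of the ribosomal protein gene Rpl10, read 9.42, 9.43 and 9.48 before and 9.28, 9.06 and 8.91 after tamoxifen, and its groups did not overlap. Its change of -0.36 ± 0.09 had an adjusted p of 0.0515, and 0.023 with the block; since its sequence is near that of Rpl10, the probe set may read both.

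The testis alpha-tubulin genes Tuba3a and Tuba3b, which are near-identical and may share probes, had values on different sides of 0. Tuba3a read 9.47, 9.42 and 9.54 before and 9.59, 9.43 and 9.38 after tamoxifen (change -0.01 ± 0.07, with the sign turned after cyclic loess and after renewed quantile normalisation). Tuba3b read 4.68, 4.83 and 5.08 before and 5.06, 4.91 and 5.08 after tamoxifen (change 0.16 ± 0.10), and neither gene was called. The bromodomain protein Brdt, the surface glycoprotein Tex101 and the dipeptidase Dpep3 had changes of 0.03, -0.08 and -0.05 and overlapping groups.

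Further genes of the same pathways were read from lists of genes that are not members. Of 12 measured further piRNA genes, 2 fell (16.7%, beside 3.99% of all genes) and 0 rose, with a median of -0.08. Dnmt3l, the cofactor of de novo DNA methylation that germ cells use at transposons, read 12.28, 12.43 and 12.07 before and 11.42, 11.61 and 11.25 after tamoxifen (-0.84 ± 0.11, limma adjusted p = 0.00616). Rnf17, a Tudor-domain protein of germ cells, read 10.87, 10.92 and 10.91 before and 10.63, 10.70 and 10.61 after (-0.25 ± 0.06, adjusted p = 0.0363). Both had groups that did not overlap; with the block Tdrd12, chosen after its values were seen, also fell (-0.35 ± 0.13, adjusted p = 0.0132).

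Of 27 measured further meiosis genes, 1 rose and 1 fell, 3.7% each, near the 3.79% and 3.99% of all genes. Of the 27 values 24 were below 0 (88.9%, beside 46.8% of all genes), and the median was -0.15. Spata22, a partner of MEIOB in meiotic recombination, read 5.85, 5.92 and 6.20 before and 6.45, 6.52 and 6.87 after tamoxifen, and it rose (0.62 ± 0.13, limma adjusted p = 0.0236). Iho1, a partner of HORMAD1 in break formation, read 7.14, 7.37 and 7.36 before and 7.005, 6.809 and 7.010 after tamoxifen, and it fell (-0.35 ± 0.09, adjusted p = 0.0457). With the block 1 rose and 5 fell, which is 3.7% and 18.5%, beside 7.87% and 9.54% of all genes. Beside Iho1 the falls were Cntd1, Meioc, Ythdc2 and Stra8, named after their values were seen, with changes of -0.68, -0.38, -0.29 and -0.27.

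Genes of primordial germ cells, the embryonic founders of the germline, mostly had changes above 0. Of 12 measured, 2 rose and 0 fell, which is 16.7% and 0%, beside 3.79% and 3.99% of all genes. The median was 0.19, and 9 values were above 0. The other 25% were below 0, beside 46.8% of all genes. This list was chosen with earlier results of these data known, and Sall4 and Dppa5a were also among the stem cell markers. Prdm14, a transcription factor of germ cell specification and of naive pluripotency, read 9.83, 9.90 and 9.74 before and 10.25, 10.39 and 10.07 after tamoxifen (0.41 ± 0.09, limma adjusted p = 0.0281). The membrane protein gene Ifitm3, also called fragilis, read 12.69, 12.84 and 12.75 before and 13.12, 13.10 and 13.16 after (0.37 ± 0.06, adjusted p = 0.0135). In both genes every treated array lay above every untreated one. With the block 6 of the 12 rose and 1 fell, which is 50% and 8.33%, beside 7.87% and 9.54% of all genes. Prdm1, Tfap2c, Nanos3 and Kit joined the rises with changes of 0.40, 0.27, 0.34 and 0.26, and Lin28a fell (-0.30 ± 0.08, adjusted p = 0.0133). These 5 genes were chosen after their values were seen, and the difference between this list and the meiosis genes was not tested.

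A further list held 24 genes that help to repress germline promoters, among them E2f6, Mga, L3mbtl2, Pcgf6 and the DNA methyltransferases. Limma called 0 of them, beside 3.79% of all genes called higher and 3.99% lower. Before adjustment, 2 were higher and 2 lower at a limma p under 0.05, beside 11.5% and 13.1% of all genes. Their median change was -0.03, and 18 values were below 0 (75%, beside 46.8% of all genes). In 13 (54.2%) the value was lower in all 3 replicate pairs, beside 26% of all genes. Atf7ip, a partner of the histone methyltransferase SETDB1, read 11.80, 11.81 and 11.85 before and 12.14, 12.03 and 12.01 after tamoxifen (0.24 ± 0.06, adjusted p = 0.0509, or 0.031 with the block). Uhrf1, which brings DNMT1 to replicated DNA, read 11.22, 11.13 and 11.02 before and 10.94, 10.86 and 10.74 after (-0.27 ± 0.08, adjusted p = 0.0676, or 0.0136 with the block). The groups of both genes stood apart. Dnmt3b, chosen after its values were seen, also fell with the block (-0.42, adjusted p = 0.00293), and its groups overlapped. With the block 1 of the 24 rose and 2 fell, which is 4.17% and 8.33%, beside 7.87% and 9.54% of all genes.

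**Figure D4:**
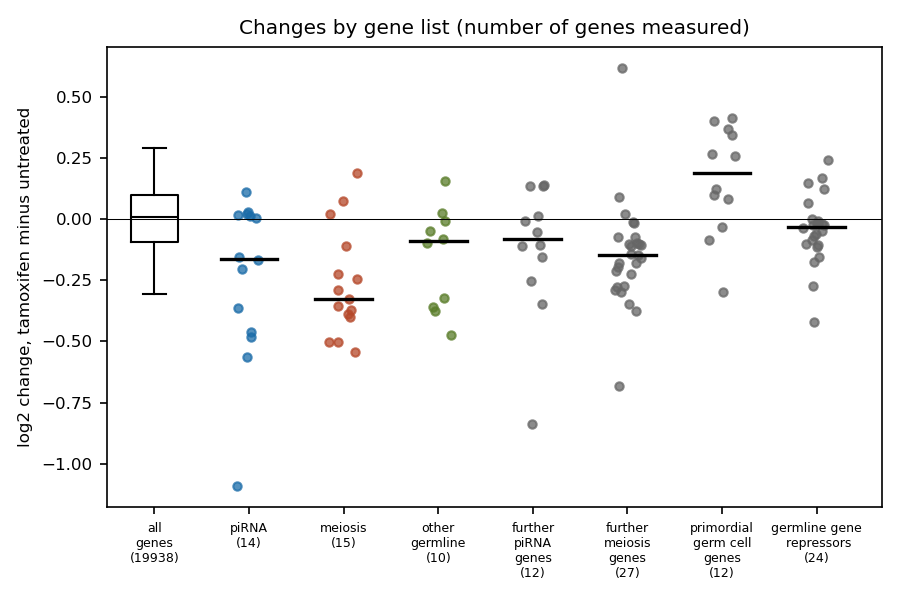
Log2 change after tamoxifen for each gene (points) and list median (black line); the box for all 19938 genes spans the quartiles and its whiskers the 5th to 95th percentile. Medians of the 3 groups of members lie at -0.16, -0.33 and -0.09, that of primordial germ cell genes at 0.19 and that of the repressors at -0.03.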

How the data were processed

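The authors deposited log2 intensities of 35556 probe sets, made with RMA (background correction, quantile normalisation and 1 summary value per probe set) in Affymetrix Expression Console (version 1.2), as stated per the submitters' processing notes. That the scale is log2 follows from the range of the values. Quantile normalisation hides a shift common to most genes, and RMA compresses changes of dim probe sets. Signals of different probe sets were not compared as transcript levels, only described as dim or bright. For the marker lists they were summed on the linear scale. Probe sets with 1 symbol in the platform annotation (21789) were kept, and the brightest over 6 arrays stood for each of 19938 genes.

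limma 3.58.1 (R 4.3.3; lmFit, then eBayes; two-sided; no filter) compared the groups, with Benjamini-Hochberg adjustment over all genes. Errors are limma's standard errors. Deviations of same-numbered arrays from their group means correlated at 0.356, 0.345 and 0.389, so the numbers were taken to pair the samples and the block was run beside the unblocked fit. The members and lists were chosen with earlier results of these data known. Members in full detail were those called in either fit, those changed by 0.3 or more on the log2 scale, and the brightest and dimmest of each group; Hormad1 and Stag3 were added after their values were seen. From each further list came at most 4 called genes a direction, or, where none was called, the 2 smallest p-values. The code was tested on simulated data. The number of arrays limits precision.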

Additional observations from a re-analysis of the deposited data

How the results depend on the processing

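No member was called higher under any of the 17 alternatives, and the median change of the members stayed below 0 in all of them. The number of members called lower, 5 as reported, was 20 with the replicate block, 14 with array weights, 10 after median centring, 9 without the dimmest 40% of genes, 2 at an adjusted p under 0.01 and 2 over all probe sets, named or not. Leaving out each array in turn gave 2 to 12. The count over all genes, 1552 as reported, was 3472 with the replicate block, 2511 with array weights, 336 over all probe sets and 276 at the stricter threshold, and 355 to 1580 without 1 array. Without the dimmest genes 20 members were left, with a median of -0.37; without 1 array the median ran from -0.25 to -0.18. After cyclic loess and after renewed quantile normalisation 34 members had values below 0, against 28 as reported. There Asz1 turned to -0.020 and -0.025, and Tuba3a to 0.037 and 0.034, in that order; without 1 array they ran from -0.040 to 0.069 and from -0.068 to 0.033. The block changed the call of 15 members named above and of no other member. The cause of these differences between settings was not tested. The filter changed the members left and the number of genes tested at once.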
